A study of Mus musculus with 2 samples.

Results

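The cytosolic heat shock chaperones and Hsf1 were compared between mouse NIH 3T3 cells, an embryonic fibroblast line, transfected with the plasmid pHA-CMV-ATCE1-C-del (ATCE1-C-del) and the same line transfected with the pHA-CMV vector that carries no insert (empty vector). The 10 genes (Hspa1a, Hspa1b, Hspa8, Hspb1, Hsph1, Dnaja1, Dnajb1, Hsp90aa1, Bag3 and Hsf1) were chosen by name, and a probe set was taken as theirs if the platform annotation gave it exactly 1 symbol and that symbol was one of the 10. This gave 20 probe sets for 9 genes, out of 22626 probe sets for 12393 genes. Hsf1 had no probe set named for it alone and so has no value here. Both cultures received Lipofectamine and gave total RNA 48 hours after transfection, and each group was 1 Affymetrix array. The insert encodes ATCE1 shortened at its C-terminus, a form the study describes as nuclear, and ATCE1 is a CREB-family transcription factor whose gene is now called Creb3l4. The labels give neither the share of cells transfected nor a culture that received no plasmid.

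Hsp70 proteins bind unfolded stretches of other proteins and release them in an ATP-driven cycle. J-proteins such as Dnaja1 and Dnajb1 bring clients to Hsp70 and stimulate its ATPase, nucleotide exchange factors such as Hsph1 and Bag3 let it release ADP, and Hsp90 takes over many clients at a later stage of folding. Hsf1 is the transcription factor that induces most of these genes after heat or other protein damage, by binding inverted repeats of the unit GAA, and Hspa8 is abundant in unstressed cells.

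Neither group was replicated, so no test was made and no value has a replicate error. MAS5 signals (the authors' summary of a probe set on a linear scale) under a floor of 77.4, the higher of the array medians, were set to that floor, and the log2 ratio has the ATCE1-C-del signal on top. A probe set was measured if at least 1 array reached the floor. Where only 1 did, the ratio gives a lower bound on the size of the difference. The only spread these arrays show is that between probe sets of the same gene: over 2440 genes with at least 2 probe sets above the floor on both arrays, it gave an SD of 0.20 for the log2 ratio of 1 probe set. The SD of all log2 ratios was 0.24, and their middle 95% ran from -0.49 to 0.46. All 9 fibroblast markers examined were measured. None of 5 epithelial, 4 endothelial and 4 muscle markers was, and of 4 macrophage markers only Cd68 was, the summed macrophage signal being 181 for ATCE1-C-del and 128 for empty vector. The transfected gene could not be checked, since the Creb3l4 probe set read 18.0 for ATCE1-C-del and 20.7 for empty vector, both under the floor.

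Most of the chaperone probe sets were slightly higher with ATCE1-C-del. Of the 17 that were measured, 15 had a ratio above 0 and 2 below, and their median log2 ratio was 0.23 (1.18-fold), against a median of 0.00 and 50.3% above 0 over all 11586 measured probe sets. By gene, using the brightest probe set of each, 7 of 8 measured genes were higher and Bag3 was lower. Their median log2 ratio was 0.25 (1.19-fold, with Hspa1a at its bound), where 48.5% of all 6785 measured genes were higher and their median was -0.01. The differences were small. Only Hspa1a passed 1.5-fold, as 1 of 8 genes higher, where 0.884% of all measured genes were, and 0 of 8 were 1.5-fold lower, where 1.08% of all were. Hspa1a counts as measured through the ATCE1-C-del array alone, so it had to be higher. The same holds for its probe set, 1 of the 15 above 0. Of the 7 members above the floor on both arrays, 6 were higher with a median log2 ratio of 0.23, and 0 passed 1.5-fold in either direction, where 0.784% of all such genes were higher and 1.03% lower by that much. Counted by probe set, 1 of 17, that of Hspa1a, was at least 1.5-fold higher and 0 lower, against 1.08% and 1.40% of all measured probe sets. At a smaller size, a signal ratio of 5 to 4, 4 of 17 were higher, that of Hspa1a among them, against 7.59% of all. By that size 1 of 17 was lower, against 8.42% of all. The 17 probe sets are not separate observations, since they read 8 genes and several share a target sequence. In these bulk cultures more RNA per cell and more cells that express a gene cannot be told apart.

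**Figure D1:**
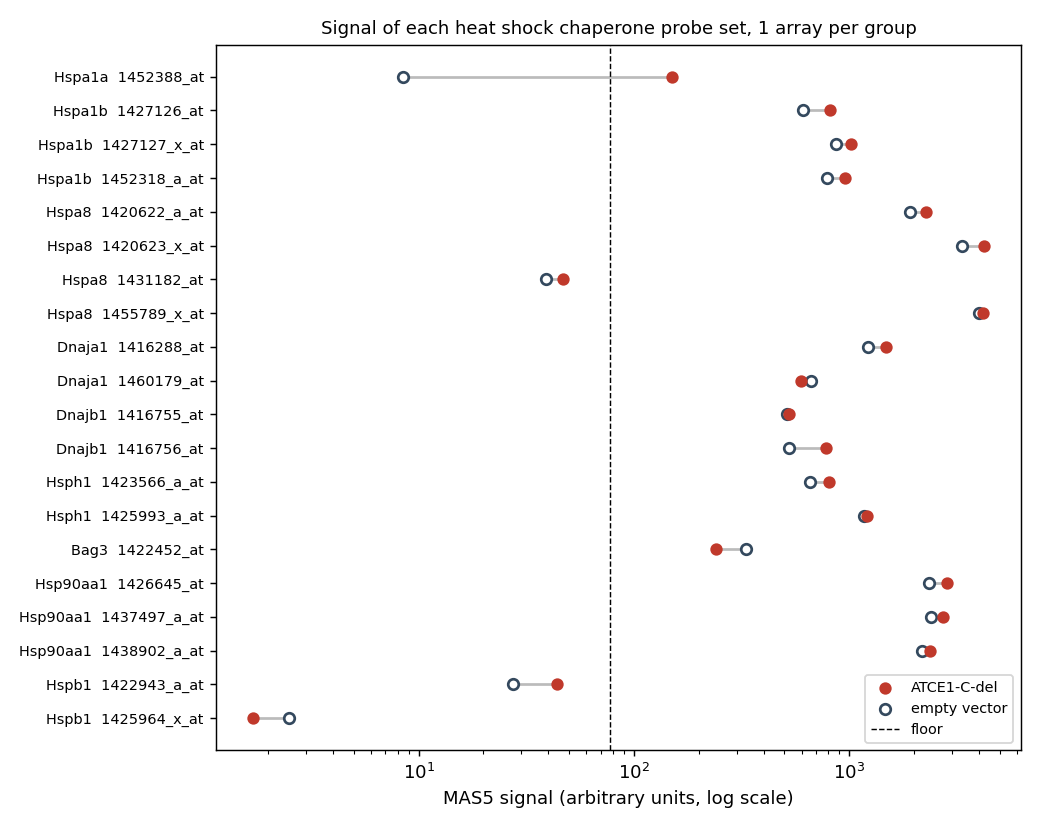
MAS5 signal (log axis, arbitrary units) of all 20 probe sets of the 9 genes that have one, with a filled point for the ATCE1-C-del array, an open point for the empty vector array and a dashed line at the floor of 77.4. Hspa1a lies on either side of the floor, at 150.9 for ATCE1-C-del and 8.5 for empty vector, and both probe sets of Hspb1 and 1 of Hspa8 lie under it on both arrays.

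Hspa1a and Hspa1b encode the stress-inducible Hsp70 in a pair of neighbouring genes on chromosome 17 whose coding sequences are nearly identical. Their promoters are shown because the annotation gives these near-copies separate probe sets that read differently. The 250 bases before each start, from RefSeq on GRCm38.p6, differ at 3 positions (98.8% the same). Capitals mark the heat shock element core GAANNTTC, where N is any base, and the CCAAT box, which appears as ATTGG on the strand shown. The Hspa1a stretch is chr17:34972157-34972406 and that of Hspa1b is chr17:34959239-34959488, both on the minus strand and written 5′ to 3′.
Hspa1a: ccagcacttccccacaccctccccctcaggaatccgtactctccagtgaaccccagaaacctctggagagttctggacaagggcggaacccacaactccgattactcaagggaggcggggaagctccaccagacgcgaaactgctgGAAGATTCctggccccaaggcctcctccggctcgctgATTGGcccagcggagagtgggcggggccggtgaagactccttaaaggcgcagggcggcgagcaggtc
Hspa1b: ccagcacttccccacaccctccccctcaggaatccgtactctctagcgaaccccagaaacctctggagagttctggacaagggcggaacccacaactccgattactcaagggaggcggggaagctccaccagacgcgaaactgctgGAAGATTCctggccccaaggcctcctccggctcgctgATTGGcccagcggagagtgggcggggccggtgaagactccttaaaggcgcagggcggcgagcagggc
In both genes the heat shock core lies 104 to 97 bases before the start and the CCAAT box 67 to 63 bases before it.

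Hspa1a had a signal of 150.9 in ATCE1-C-del cells and 8.5 in empty vector cells on its only probe set, 1452388_at. The empty vector signal was under the floor, so the difference is at least 1.95-fold (log2 ratio at least 0.96). Across the arrays, 350 probe sets were above the floor with ATCE1-C-del only and 273 with empty vector only. The size of the Hspa1a difference rests on a signal near the bottom of the scale: on the empty vector array 23.8% of probe sets were dimmer.

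As a ratio, Hspa1b was higher by much less, on all 3 of its probe sets, which were made to the same target sequence record. The difference in deposited signal was 206.4 on 1427126_at, 158.6 on 1452318_a_at and 150.8 on 1427127_x_at. For Hspa1a it was 142.4, with the empty vector signal of 8.5 under the floor. MAS5 signals are in arbitrary units, so these differences cannot be compared between the genes as amounts of transcript. Probe set 1427126_at read 817.5 in ATCE1-C-del cells and 611.1 in empty vector cells, 1.34-fold higher. Probe set 1452318_a_at read 950.4 in ATCE1-C-del cells and 791.8 in empty vector cells, 1.2-fold higher, and 1427127_x_at read 1016.5 in ATCE1-C-del cells and 865.7 in empty vector cells, 1.17-fold higher. Their log2 ratios (0.42, 0.26 and 0.23) spanned 0.19, less than the median span of 0.30 among the 539 genes with 3 measured probe sets. The names of the last 2, ending in _a_at and _x_at, mark probe sets with possible matches in several transcripts. Whether any of the 3 also reads Hspa1a transcripts was not tested. The ratio at Hspa1b lay between 0.20 and 0.50 under the 12 alternative settings.

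Hspa8, the constitutive cytosolic Hsp70, was higher on its 3 measured probe sets. Probe set 1420623_x_at read 4220.8 in ATCE1-C-del cells and 3355.5 in empty vector cells (1.26-fold), and 1420622_a_at read 2259.9 in ATCE1-C-del cells and 1921.2 in empty vector cells (1.18-fold). The brightest, 1455789_x_at, was nearly level at 4163.1 in ATCE1-C-del cells and 3986.8 in empty vector cells (1.04-fold, log2 ratio 0.06), and quantile normalization and lowess turned it to -0.02. All 3 can match several transcripts by their names. The remaining probe set, 1431182_at, was under the floor on both arrays, at 47.0 for ATCE1-C-del and 39.0 for empty vector.

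**Figure D2:**
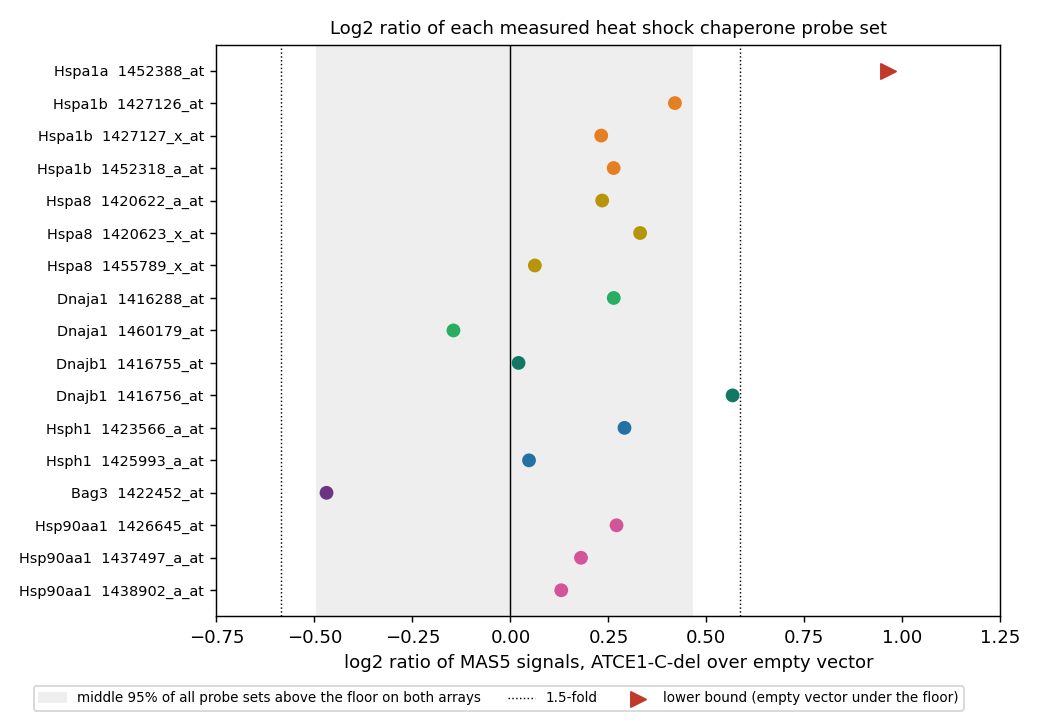
Log2 ratio of the 17 measured probe sets, 1 point each, coloured by gene, with the middle 95% of all probe sets above the floor on both arrays shaded and 1.5-fold dotted. Hspa1a is drawn as a lower bound at 0.96; 1 of the Dnajb1 probe sets (0.57) lies outside the shaded range, and Bag3 (-0.47) and the lower Dnaja1 probe set (-0.15) are the points below 0, that of Dnaja1 lying at 0.13 when scaled to the hybridisation controls.

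The J-protein genes each had probe sets that disagreed. Dnajb1, a stress-inducible J-protein also known as Hsp40, read 778.6 in ATCE1-C-del cells and 525.6 in empty vector cells on 1416756_at, 1.48-fold higher (log2 ratio 0.57), a ratio exceeded by 1.18% of measured probe sets. Its other probe set, 1416755_at, was made to the same target record and was level, at 523.6 in ATCE1-C-del cells and 516.1 in empty vector cells (log2 ratio 0.02). The gap of 0.55 between them was wider than in 93.7% of the 1632 genes with 2 probe sets measured on both arrays, whose median gap was 0.17. Averaged over both, Dnajb1 had a log2 ratio of 0.29. It passed 1.5-fold with quantile normalization and with lowess, at 0.59 in both, and with scaling to the hybridisation controls, at 0.84.

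Dnaja1, a J-protein of the type I class that works with Hspa8, went both ways. Probe set 1416288_at read 1473.2 in ATCE1-C-del cells and 1227.1 in empty vector cells, 1.2-fold higher (log2 ratio 0.26). Probe set 1460179_at, made to the same target record, read 598.4 in ATCE1-C-del cells and 661.8 in empty vector cells, 1.11-fold lower (log2 ratio -0.15), and scaling to the hybridisation controls turned this to 0.13. The mean of both was 0.06, so these arrays give no settled direction for Dnaja1.

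The nucleotide exchange factors did not share a direction. Hsph1, also called Hsp105 or Hsp110, was higher on both probe sets: 1423566_a_at read 804.5 in ATCE1-C-del cells and 657.5 in empty vector cells (1.22-fold), and the brighter 1425993_a_at read 1204.1 in ATCE1-C-del cells and 1165.1 in empty vector cells (1.03-fold). Bag3, which links Hsp70 to small heat shock proteins and to the selective autophagy of damaged proteins, read 240.2 in ATCE1-C-del cells and 332.5 in empty vector cells on its only probe set, 1422452_at. It was 1.38-fold lower (log2 ratio -0.47), and 3.09% of measured probe sets had a lower ratio. Bag3 was at -0.20 with scaling to the hybridisation controls and, with the ATCE1-C-del signal then under the floor, at -0.08 with the floor at the 75th percentile. Bag2, another Bag-domain cochaperone of Hsp70, went the other way on its single probe set, at 306.3 in ATCE1-C-del cells and 209.5 in empty vector cells (1.46-fold higher). Among the remaining Bag genes measured, Bag4 had a log2 ratio of 0.10, and Bag1, Bag5 and Bag6 lay below 0, at -0.13, -0.14 and -0.05.

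The upstream sequences of Dnajb1 and Bag3 are shown because these genes had the highest and the lowest log2 ratio among members above the floor on both arrays. The stretches are the 250 bases before the start farthest upstream, from RefSeq on GRCm38.p6, both on the plus strand: chr8:83607925-83608174 for Dnajb1 and chr7:128523333-128523582 for Bag3. Capitals mark CCAAT (here as ATTGG) and TGACG, the half-site of the cAMP response element that CREB proteins bind (here as CGTCA).
Dnajb1: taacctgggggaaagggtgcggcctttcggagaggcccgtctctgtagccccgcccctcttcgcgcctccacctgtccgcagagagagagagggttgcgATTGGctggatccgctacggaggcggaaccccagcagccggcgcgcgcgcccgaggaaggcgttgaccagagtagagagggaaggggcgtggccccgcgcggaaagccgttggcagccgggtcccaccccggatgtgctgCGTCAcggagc
Bag3: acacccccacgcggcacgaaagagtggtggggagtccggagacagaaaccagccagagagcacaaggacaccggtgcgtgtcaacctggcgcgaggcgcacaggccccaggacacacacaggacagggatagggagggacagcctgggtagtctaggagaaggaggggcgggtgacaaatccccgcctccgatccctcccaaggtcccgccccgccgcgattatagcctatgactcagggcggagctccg
Bag3 holds none of the marked motifs in this window, and Dnajb1 has its half-site 11 to 7 bases before the start.

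The same motifs were searched on both strands in the 7 members with a promoter in the RefSeq table used, which did not list Hspa8, Hsp90aa1 or Hsf1, and in 1 window of the same length for each of 27025 genes. A heat shock core, as GAANNTTC or TTCNNGAA, was present in 5 of 7 members (Dnaja1, Hspa1a, Hspa1b, Hspb1 and Hsph1) and in 13.0% of all windows. CCAAT was present in 4 of 7 (Dnajb1, Hspa1a, Hspa1b and Hsph1) and in 34.5% of all windows. Both counts take Hspa1a and Hspa1b separately, although their windows are 98.8% the same. The members were chosen as heat shock genes, so their share with a heat shock core is no result of these arrays. The half-site TGACG was present in Dnajb1 and Hspb1 and in 17.8% of all windows, and the full element TGACGTCA, which contains it, in 0 of 7 members and 1.60% of all windows. A stretch of 3 alternating GAA and TTC units was present in 0 of 7 members and 0.403% of all windows. These are matches of letters and say nothing of binding. Of the measured members searched, Dnajb1 and Bag3 had no heat shock core, and their brightest probe sets had log2 ratios of 0.57 and -0.47. Those with a core were Hspa1a (at least 0.96), Dnaja1 (0.26), Hspa1b (0.23) and Hsph1 (0.05). Whether the ratio goes with the core was not tested.

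Hsp90aa1, the inducible cytosolic Hsp90, was higher on all 3 of its probe sets, and these agreed most closely. Probe set 1426645_at read 2829.6 in ATCE1-C-del cells and 2345.3 in empty vector cells, 1.21-fold higher. The others, 1437497_a_at at 2723.7 in ATCE1-C-del cells and 2404.0 in empty vector cells and 1438902_a_at at 2368.5 in ATCE1-C-del cells and 2164.7 in empty vector cells, were 1.13-fold and 1.09-fold higher. The log2 ratios spanned 0.14, and only 16.9% of the 539 genes with as many probe sets had a narrower span. Hspb1, the small heat shock protein Hsp25 of mouse, was not measured. Its probe set 1422943_a_at read 43.8 in ATCE1-C-del cells and 27.4 in empty vector cells, and 1425964_x_at read 1.70 in ATCE1-C-del cells and 2.50 in empty vector cells, all under the floor, so no fold is given.

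**Figure D3:**
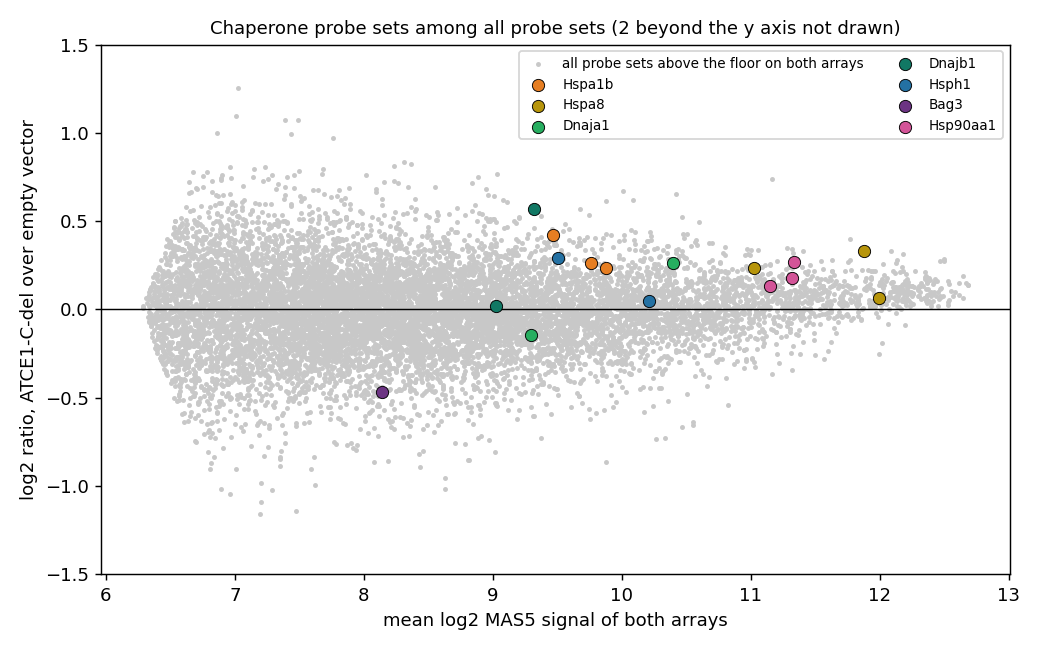
Log2 ratio, ATCE1-C-del to empty vector (y axis), against the mean log2 MAS5 signal of both arrays (x axis), in grey for all probe sets above the floor on both arrays and coloured for those of the members, 2 probe sets beyond the y axis not being drawn. The chaperone points lie mostly above 0 at medium and high signal, with Bag3 (-0.47) and 1 probe set of Dnaja1 (-0.15) below; scaling to the hybridisation controls moves that of Dnaja1 above 0, and quantile normalization and lowess move the brightest of Hspa8 to -0.02.

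The ratio of a probe set depended somewhat on its brightness, so the members were also set beside probe sets of like signal. Among 1829 probe sets with a mean signal of at least 1000, the median log2 ratio was 0.04 and 61.4% were above 0. All 8 member probe sets in this range were above 0 and above that median, with a median of 0.21. They read only Hsp90aa1, Hspa8, Dnaja1 and Hsph1, so they are not separate observations. The brightest of Hspa8, at 0.06, was close to that median, and it fell to -0.02 with quantile normalization and with lowess. Among 3977 probe sets between 300 and 1000, the median was -0.02 and 45.1% were above 0, and 6 of 7 member probe sets were above 0, with a median of 0.26. These 7 include all 3 probe sets of Hspa1b and both of Dnajb1. Between the floor and 300 the only member was Bag3. The 18 probe sets for hybridisation controls, RNA spiked into each labelled sample, had a median of -0.25 in log2 ratio, and 17 of 18 lay below 0. Scaling to them moved the median of all measured genes to 0.26 and that of the 8 members to 0.52. This scaling adds the same amount to the ratio of every gene above the floor on both arrays, so it cannot change their order. Which of the scalings is right was not tested.

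Other genes of the folding machinery were taken from 6 related lists, which were not set beside genes of like signal. Of all probe sets with a mean signal of at least 1000, 61.4% were above 0, and of those between 300 and 1000, 45.1%. In these lists, 62 of 84 genes were measured, and 42 were higher and 20 lower, where 48.5% of all measured genes were higher. Their median log2 ratio was 0.07, against -0.01 over all measured genes. Past 1.5-fold were 0 of the 62 in either direction, where 0.884% of all measured genes were higher and 1.08% lower by that much. At those shares a count of 0 in 62 says little about the lists. The TRiC chaperonin, which folds actin and tubulin, and its partner prefoldin had 9 of 13 measured genes higher, with a median of 0.08. Their extreme members were Pfdn6 at 1.2-fold, Tcp1 at 1.18-fold, Vbp1 at 1.16-fold and Cct4 at 1.09-fold higher, the other probe sets of Cct4 running from -0.13 to 0.51. Mitochondrial chaperones and proteases had 6 of 10 higher, with a median of 0.06. Among them Hspd1 and Lonp1 were 1.10-fold and 1.08-fold higher, and Dnaja3 and Hspa9 were 1.24-fold and 1.10-fold lower with other probe sets above 0 (0.11 for Dnaja3, and 0.13 and 0.54 for Hspa9).

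Cochaperones of Hsp70 and Hsp90 had 14 of 20 measured genes higher, with a median of 0.03, where 48.5% of all measured genes were higher. Beside Bag2, the phosphatase Ppp5c was 1.28-fold and the Hsp70-Hsp90 adaptor Stip1 1.16-fold higher, and the myosin chaperone Unc45a was 1.16-fold lower, the other probe sets of Ppp5c lying at -0.04 and 0.15. Further DNAJ genes had 8 of 10 higher, with a median of 0.11, led by the histone-binding Dnajc9 at 1.41-fold and Dnaja2, a relative of Dnaja1, at 1.27-fold. Dnajc5 and Dnajc8 were 1.22-fold and 1.10-fold higher, but the other probe sets of Dnajc5 ran from -0.40 to 0.53. In the remaining heat shock list, 4 of 8 measured genes were higher, with a median of 0.03, which turned to -0.03 with the mean over each gene's probe sets. There Hspa14 was 1.31-fold, the small heat shock protein Cryab 1.29-fold and Hspa4, a relative of Hsph1, 1.17-fold higher, and Hspa2 was 1.32-fold lower. The other probe set of Cryab went the opposite way (-0.36), as did those of Hspa4 (-0.46 and -0.06). Of the heat shock factor family and its regulators only Hsbp1, which binds and restrains Hsf1, was measured. It was 1.14-fold higher on the brightest probe set and -0.17 in log2 ratio on the other. Hsf2 read 0.3 on both arrays, and Hsf4 read 41.9 in ATCE1-C-del cells and 29.5 in empty vector cells, all under the floor.

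**Figure D4:**
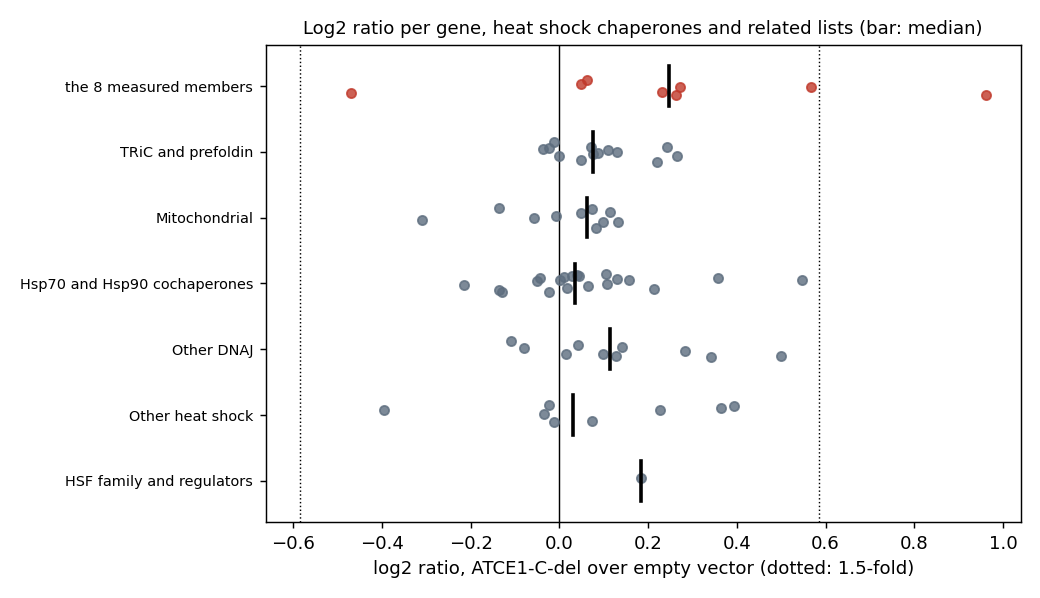
Log2 ratio (ATCE1-C-del to empty vector) per gene (brightest probe set) for the 8 measured members and the measured genes of 6 related lists, 1 point a gene, with a bar at each median and 1.5-fold dotted. The members' median is 0.25 and those of the lists lie between 0.03 and 0.18, the last being 1 gene, Hsbp1; with the mean over a gene's probe sets the median of other heat shock genes turns to -0.03, and scaled to the hybridisation controls all of these are higher by about the same amount.

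**Figure D5:**
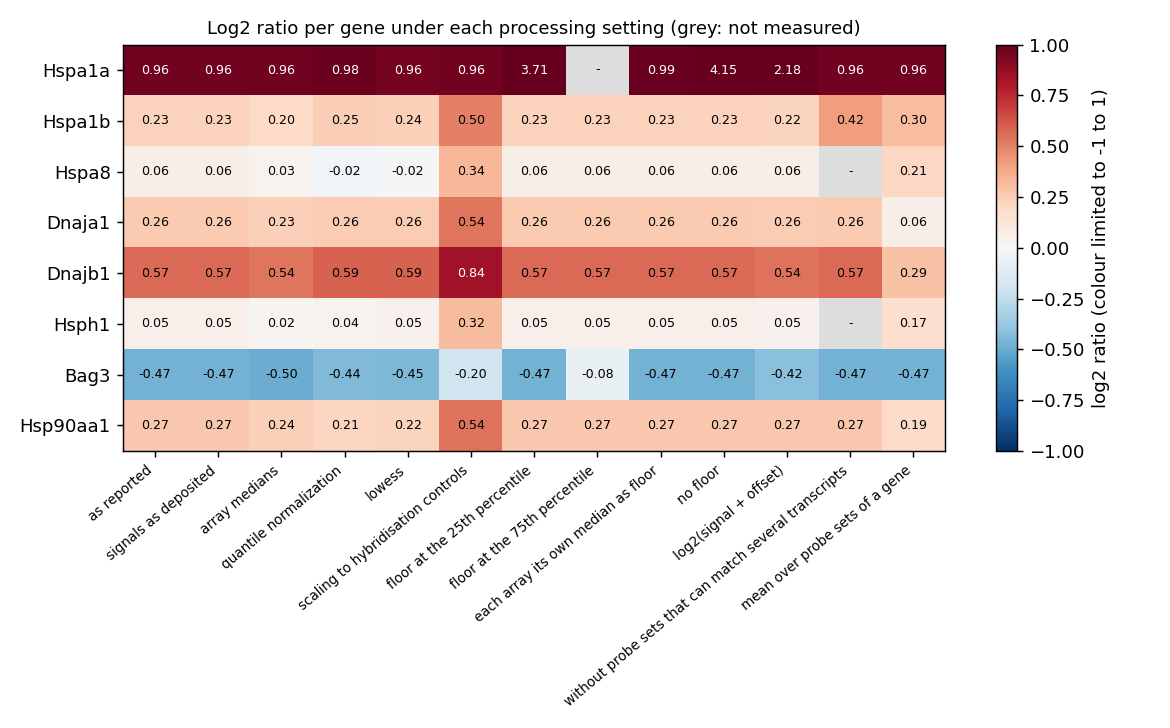
Log2 ratio of each measured member (rows) under the reported and 12 alternative processing settings (columns), printed in each cell and coloured from blue (lower with ATCE1-C-del) to red (higher), grey where the gene was not measured. Hspa8 turns to -0.02 with quantile normalization and with lowess.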

How the data were processed

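RNA of 2 cultures was read on 2 arrays of 22690 probe sets. The deposited values are linear intensity values made by the authors with MAS5, per the submitters' processing notes. The sources used here give no version, mask or presence call. Gene names came from the platform annotation (1 symbol for 20380 probe sets, several for 691, none for 1555, and 64 controls left out), and the 9 member symbols with a probe set matched a RefSeq gene table (GRCm38.p6). Each array was divided by its mean trimmed by 2% at each end (250.1 on both). Signals under the higher array median were set to it, and log2 ratios were taken. The brightest probe set stood for a gene. Named list genes were up to 4 per list with the largest absolute ratio above the floor on both arrays. No test was possible with 1 array per group, and the number of arrays limits the precision. The procedure was checked on simulated data with planted changes larger than most differences reported here, and only in probe sets well above the floor. That check does not cover small differences or signals near the floor. The members, lists and alternatives were chosen with earlier results of these data known. Alternatives covered scaling, floor, log scale, fold threshold, and choice of probe set. Scripts ran in Python 3.11.15 with pandas 2.3.3, numpy 2.4.6, statsmodels 0.14.6 (lowess), scipy 1.17.1 and, for figures, matplotlib 3.10.9.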

Additional observations from a re-analysis of the deposited data

How the results depend on the processing

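No paired analysis was possible because each group had 1 array, and for the same reason no replicate could be left out. The count of members at least 1.5-fold higher, 1 as reported, was 2 with quantile normalization, lowess, scaling to the hybridisation controls, a floor at the 25th percentile or a threshold of 5 to 4. The added gene was Dnajb1, except with the floor at the 25th percentile, where Dnajb1 stayed at 0.57. There it was Hspb1, with signals of 43.8 for ATCE1-C-del and 27.4 for empty vector. The count was 0 with a floor at the 75th percentile, which removes Hspa1a, with a 2-fold threshold, or with genes above the floor on both arrays only, a setting chosen after seeing the data. The count lower, 0 as reported, was 1 at 5 to 4. Genes of the 6 lists past the threshold, 0 as reported, were 6 higher with scaling to the hybridisation controls, 1 higher with the floor at the 25th percentile, and 6 higher and 1 lower at 5 to 4. Over all 6785 measured genes, 450 were higher and 537 lower at 5 to 4. Scaling to the hybridisation controls moved the median of all measured genes to 0.26. How many of all genes passed 1.5-fold under the other settings was not counted, so those counts have no share beside them. With scaling to the hybridisation controls the median log2 ratio was 0.52 for the members, 0.35 for TRiC and prefoldin, 0.33 for mitochondrial genes, 0.31 for cochaperones, 0.39 for other DNAJ genes, 0.30 for other heat shock genes and 0.46 for Hsbp1 alone. With the mean over a gene's probe sets, Hsbp1 was at 0.0053 and the median of other heat shock genes at -0.03. A floor at the 25th percentile put the list of heat shock factors and regulators at a median of 0.35, and the members at 0.26. Single probe sets changed sign in 4 cases, 1416755_at (Dnajb1) at -0.01 with array medians, 1455789_x_at (Hspa8) at -0.02 with quantile normalization and with lowess, and 1460179_at (Dnaja1) at 0.13 with scaling to the hybridisation controls. Hspa8 and Hsph1 had no measured value without probe sets that can match several transcripts. Signals under the reported floor limit Hspa1a to a bound and give no ratio for Hspb1.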
